A study of Mus musculus with 14 samples.

Results

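The 10 genes described here are the calcium and potassium channels and the calcium store proteins of arterial smooth muscle: Cacna1c, Trpc6, Itpr1, Ryr2, Ryr3, Atp2a2, Kcnma1, Kcnmb1, Kcnj8 and Abcc9. They were taken by symbol from a table of read counts with 46095 gene symbols, and all 10 were among the 17693 genes that passed the filter on low counts. The counts come from RNA sequencing of the superior mesenteric artery (SMA), the vessel that feeds most of the intestine, in 14 C57BL/6 mice that were 8 weeks old. The 4 groups were Normal Drp1 +/+ (n = 3), Normal Drp1 flox/+ (n = 4), Ischemia Drp1 +/+ (n = 3) and Ischemia Drp1 flox/+ (n = 4). Drp1, encoded by Dnm1l, is the dynamin-like GTPase that divides mitochondria. The labels write the altered allele as flox/+ and name no Cre, whereas the study's methods describe heterozygous mice with a frameshift made by CRISPR/Cas9, which is not restricted to 1 cell type. Ischemia in the study's methods is bleeding through the femoral artery, so the SMA itself was not occluded. The library names of the ischemia mice carry a time of 2 h, and the study's text mentions a longer period for such mice.

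Arterial smooth muscle contracts when calcium in the cytoplasm rises. Calcium enters through voltage-gated channels of the L type and through non-selective cation channels, and it leaves the sarcoplasmic reticulum, the store inside the cell, through inositol trisphosphate receptors and ryanodine receptors. The pump SERCA refills the store. Potassium channels oppose contraction, because the membrane becomes more negative when they open and the voltage-gated calcium channels then close. Brief local releases through ryanodine receptors, called calcium sparks, open the large-conductance potassium channel (BK), and the ATP-sensitive potassium channel (KATP) opens when the energy supply of the cell falls. The comparisons asked whether the RNA of these genes differed between genotypes in normal or in ischemic SMAs, between ischemic and normal SMAs within a genotype, and whether the 2 ischemia effects differed.

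Libraries held between 25612646 and 40255851 counted reads, and levels are given as CPM, the counts scaled to library size with edgeR's TMM factors. Among markers of smooth muscle, Myh11 lay between 2726 and 13667 CPM and Acta2 between 3357 and 18598 CPM. Tagln, usually abundant in this tissue, was counted at only 0.675 to 5.78 CPM. The other markers of the 10 were Cnn1, Smtn, Des, Lmod1, Mylk, Synpo2 and Actg2. Normal Drp1 +/+ replicate 2 had the lowest sum of the 10 smooth muscle markers (8096 CPM, against 11932 to 41009 CPM in the other mice). It also had the highest sum of the 5 brown adipocyte markers (6721 CPM, against 157.5 to 6203 CPM). In ischemic SMAs that sum was 265 to 1375 CPM in +/+ and 959 to 4813 CPM in flox/+ mice. All 5 were higher there in flox/+ mice by fitted fold change. Of these, 2 had an unadjusted p under 0.05 in edgeR, beside 6.48% of all genes, and none was called, beside 0.0%. The part of fat tissue in the group comparisons was not tested. The 5 markers of cardiac muscle (Myh6, Myl7, Tnnt2, Nppa and Tnni3) summed to 5387 CPM in Ischemia Drp1 flox/+ replicate 4, to 796 CPM in Ischemia Drp1 flox/+ replicate 3, to 327 CPM in Normal Drp1 flox/+ replicate 4 and to 55.9 CPM in Ischemia Drp1 +/+ replicate 1. In the other 10 libraries the sum lay between 6.66 and 15.0 CPM, and Nppa had no count in any Normal Drp1 +/+ library. Dnm1l was at 63.8 to 90.9 CPM in Normal Drp1 +/+, 54.8 to 62.2 CPM in Normal Drp1 flox/+, 63.1 to 81.0 CPM in Ischemia Drp1 +/+ and 60.0 to 76.0 CPM in Ischemia Drp1 flox/+. The genotypes did not overlap for Dnm1l in normal SMAs, as for 4.5% of all genes. Neither genotype difference passed the test (edgeR's adjusted p = 0.974 in normal and 0.872 in ischemic SMAs). In whole arteries, fewer smooth muscle cells and less RNA per smooth muscle cell cannot be told apart.

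Across the 14 mice the levels per kilobase of exon sequence spanned a wide range. Atp2a2, which encodes SERCA2, the pump of the arterial store, had the highest median, 120.1 CPM per kb (65.5 to 454). It was followed by Kcnmb1, the beta subunit that raises the calcium sensitivity of BK, at 51.6 CPM per kb, and by Abcc9, the sulfonylurea receptor SUR2 of vascular KATP, at 42.0 CPM per kb. Kcnj8, the pore Kir6.1 of the same channel, had a median of 21.9 CPM per kb and Itpr1, the inositol trisphosphate receptor of type 1, one of 14.9 CPM per kb. Kcnma1, the BK pore, and Cacna1c, the L-type calcium channel pore, followed at 6.30 and 5.09 CPM per kb. Ryr2, the ryanodine receptor best known from heart, had a median of 1.47 CPM per kb. Trpc6, a receptor-operated cation channel, was at 0.119 CPM per kb and Ryr3, a further ryanodine receptor, at 0.0322 CPM per kb, so these 2 genes rested on 0 to 70 and 2 to 79 reads per library. Neighbours in this order were not always separated: Kcnmb1 exceeded Abcc9 in 11 of 14 mice and Kcnj8 exceeded Itpr1 in 11 of 14 mice, whereas Atp2a2 exceeded Kcnmb1, Itpr1 exceeded Kcnma1, and Kcnma1 exceeded Cacna1c in all 14. The lengths are unions of all annotated exons (4191 bases for Kcnmb1 and 16976 bases for Kcnma1, for example), so they can exceed those of the transcripts in this tissue.

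The genes lie on 7 chromosomes of the mouse build GRCm38. Cacna1c (chr6:118587240-119196418, minus strand), Itpr1 (chr6:108213096-108551109, plus strand), Kcnj8 (chr6:142564837-142571614, minus strand) and Abcc9 (chr6:142587862-142702315, minus strand) are on chromosome 6, where 16247 bases separate Kcnj8 from Abcc9. Trpc6 (chr9:8544142-8680741, plus strand), Ryr2 (chr13:11553102-12106945, minus strand), Ryr3 (chr2:112631355-113217096, minus strand), Atp2a2 (chr5:122453513-122502225, minus strand), Kcnma1 (chr14:23289431-24014491, minus strand) and Kcnmb1 (chr11:33963013-33973641, plus strand) each stand alone. RefSeq start sites were at hand for 7 of the 10 genes, 9 start sites in all, since Cacna1c has 3. Promoters are shown for Trpc6, for the subunit pair of BK, and for the subunit pair of KATP, whose genes are neighbours. Each runs from 250 bases before to 50 bases after the start site in GRCm38.p6, written in the direction of transcription. Capitals mark a CArG box, the site type of serum response factor, or an M-CAT element (CATTCC on either strand), the site type of TEAD factors.
Trpc6, chr9:8543892-8544191, plus strand: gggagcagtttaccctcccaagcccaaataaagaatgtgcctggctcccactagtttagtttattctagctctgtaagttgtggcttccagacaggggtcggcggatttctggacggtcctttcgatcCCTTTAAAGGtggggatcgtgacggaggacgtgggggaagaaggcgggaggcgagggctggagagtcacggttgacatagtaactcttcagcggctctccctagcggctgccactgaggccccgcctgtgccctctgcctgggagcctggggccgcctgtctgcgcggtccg
Kcnma1, chr14:24004156-24004455, minus strand: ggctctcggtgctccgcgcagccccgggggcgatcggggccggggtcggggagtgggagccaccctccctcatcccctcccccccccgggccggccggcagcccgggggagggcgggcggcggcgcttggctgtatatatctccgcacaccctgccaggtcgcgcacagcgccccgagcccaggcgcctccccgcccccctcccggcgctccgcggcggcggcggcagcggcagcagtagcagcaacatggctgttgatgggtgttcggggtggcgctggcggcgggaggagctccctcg
Kcnmb1, chr11:33962763-33963062, plus strand: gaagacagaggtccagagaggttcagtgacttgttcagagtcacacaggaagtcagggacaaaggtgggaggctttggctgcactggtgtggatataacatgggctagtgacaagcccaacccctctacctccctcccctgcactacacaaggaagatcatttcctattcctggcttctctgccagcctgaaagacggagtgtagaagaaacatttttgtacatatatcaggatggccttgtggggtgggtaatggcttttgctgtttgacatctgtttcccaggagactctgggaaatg
Abcc9, chr6:142702225-142702524, minus strand: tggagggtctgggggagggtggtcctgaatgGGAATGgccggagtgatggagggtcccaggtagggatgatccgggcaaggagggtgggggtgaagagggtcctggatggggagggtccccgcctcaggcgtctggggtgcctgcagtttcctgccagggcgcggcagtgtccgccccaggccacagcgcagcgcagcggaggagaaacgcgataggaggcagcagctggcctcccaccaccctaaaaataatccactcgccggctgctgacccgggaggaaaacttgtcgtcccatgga
Kcnj8, chr6:142571565-142571864, minus strand: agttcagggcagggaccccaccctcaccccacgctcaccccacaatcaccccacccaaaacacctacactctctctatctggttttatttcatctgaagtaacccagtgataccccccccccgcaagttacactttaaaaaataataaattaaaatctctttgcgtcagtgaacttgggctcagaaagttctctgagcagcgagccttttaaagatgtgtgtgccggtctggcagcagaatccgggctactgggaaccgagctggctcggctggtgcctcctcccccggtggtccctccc
The CArG box of Trpc6 began at -122 relative to the start site, and it was the only one among the 9 promoters, against 1.63% of 32851 RefSeq promoters of this length. The M-CAT element of Abcc9 began at -219, and 14.7% of all promoters held one. TATAAA, found in 13.6% of all promoters on either strand, was in none of the 9. The Kcnma1 promoter had a GC content of 78.0% with 36 CpG dinucleotides, whereas that of its partner Kcnmb1 had 49.7% and 1, beside medians of 52.7% and 7 over all promoters. The KATP neighbours had 53.3% and 9 for Kcnj8 and 65.7% and 16 for Abcc9. These matches describe letters in these windows and were not tested for binding or function.

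RNA levels of the 2 calcium entry channels were read in each mouse, and no difference between the 2 was tested. Cacna1c was at 125, 37.8 and 96.8 CPM in Normal Drp1 +/+, at 125, 79.2, 105 and 71.3 CPM in Normal Drp1 flox/+, at 171, 132 and 139 CPM in Ischemia Drp1 +/+ and at 133, 72.0, 111 and 77.9 CPM in Ischemia Drp1 flox/+. All 3 Ischemia Drp1 +/+ mice lay above all 3 Normal Drp1 +/+ mice, while the 2 flox/+ groups overlapped. Of all genes, 11.0% did not overlap in either direction between the +/+ groups and 11.1% between the flox/+ groups. The 2 ischemia effects on Cacna1c did not differ past the test (edgeR's unadjusted p = 0.171, adjusted p = 0.946). Trpc6 was represented by 66, 70 and 17 reads in Normal Drp1 +/+, by 0, 20, 46 and 31 reads in Normal Drp1 flox/+, by 6, 1 and 15 reads in Ischemia Drp1 +/+ and by 19, 22, 32 and 15 reads in Ischemia Drp1 flox/+. The level in the Normal Drp1 flox/+ mouse without a read could have been as high as 0.0846 CPM, the level of 3 reads there, and this limit covers counting error only. Ischemia Drp1 +/+ was thus the group with the lowest Trpc6, at 0.182, 0.0340 and 0.414 CPM, below all Normal Drp1 +/+ mice at 1.95, 2.49 and 0.642 CPM and below all Ischemia Drp1 flox/+ mice at 0.456 to 0.936 CPM. In these 2 comparisons 11.0% and 10.7% of all genes did not overlap. The fitted change with ischemia in Drp1 +/+ mice was -2.97 ± 1.20 (log2, SE) with an unadjusted p of 0.0271 and an adjusted p of 0.513 in edgeR, so it did not pass the test. It lay between -3.90 and -2.51 when single mice were left out.

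Itpr1 had the highest RNA level per kilobase of the 3 store release channels. Its levels were 279, 215 and 354 CPM in Normal Drp1 +/+, 216, 207, 268 and 223 CPM in Normal Drp1 flox/+, 440.1, 251 and 322 CPM in Ischemia Drp1 +/+ and 355, 309.5, 326 and 256 CPM in Ischemia Drp1 flox/+. It varied least of the 10 genes, with a coefficient of variation of 23.5% over all mice, and its groups overlapped in every comparison. Ryr2 was at 43.1, 14.9 and 44.4 CPM in Normal Drp1 +/+, at 35.6, 25.0, 28.1 and 41.4 CPM in Normal Drp1 flox/+, at 58.1, 38.7 and 40.6 CPM in Ischemia Drp1 +/+ and at 54.9, 44.0, 67.1 and 221 CPM in Ischemia Drp1 flox/+. Every Ischemia Drp1 flox/+ mouse lay above every Normal Drp1 flox/+ mouse, beside 11.1% of all genes without overlap, and Ischemia Drp1 flox/+ replicate 4 stood far above the rest. Ryr3 had 14, 19 and 9 reads in Normal Drp1 +/+, 44, 23, 3 and 23 in Normal Drp1 flox/+, 21, 2 and 28 in Ischemia Drp1 +/+ and 16, 8, 20 and 79 in Ischemia Drp1 flox/+. Its highest value came from the same mouse as that of Ryr2.

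For store uptake, the RNA of Atp2a2 followed that of Ryr2. Atp2a2 was at 695, 398 and 792 CPM in Normal Drp1 +/+, at 615, 442, 599 and 575 CPM in Normal Drp1 flox/+, at 1196, 673 and 853 CPM in Ischemia Drp1 +/+ and at 834, 765, 1068 and 2759 CPM in Ischemia Drp1 flox/+. Again every Ischemia Drp1 flox/+ mouse exceeded every Normal Drp1 flox/+ mouse, beside 11.1% of all genes without overlap. The fitted changes with ischemia in Drp1 flox/+ mice were 1.57 ± 0.48 for Ryr2 (log2, SE; unadjusted p = 0.00558, adjusted p = 0.187, edgeR) and 1.28 ± 0.39 for Atp2a2 (unadjusted p = 0.00564, adjusted p = 0.188, edgeR), so neither passed the test. In the test of the 4 groups the unadjusted p was 0.0149 for Ryr2 and 0.0222 for Atp2a2, with adjusted p of 0.285 and 0.324 in edgeR.

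Both genes are also abundant in cardiac muscle, where SERCA2 and the ryanodine receptor of type 2 drive each beat, and the mouse with the highest Ryr2 and Atp2a2 was the one with the most cardiac markers. Myh6, the main myosin heavy chain of the adult mouse heart, was at 3529 CPM there, at 518 CPM in Ischemia Drp1 flox/+ replicate 3, at 203 CPM in Normal Drp1 flox/+ replicate 4, at 25.4 CPM in Ischemia Drp1 +/+ replicate 1 and at 0.304 to 3.09 CPM in the other 10. Without Ischemia Drp1 flox/+ replicate 4 the change with ischemia in flox/+ mice was 0.77 ± 0.33 for Ryr2 (adjusted p = 0.428, edgeR) and 0.67 ± 0.28 for Atp2a2 (adjusted p = 0.404, edgeR). Without all 4 libraries with Myh6 over 20 CPM, an alternative chosen after seeing the data, it was 0.74 ± 0.40 for Ryr2 (adjusted p = 0.699, edgeR) and 0.54 ± 0.33 for Atp2a2 (adjusted p = 0.751, edgeR). In the 3 normal and 2 ischemic flox/+ mice that were left, the groups did not overlap for either gene, as for 31.9% of all genes: Ryr2 was at 54.9 and 44.0 CPM in ischemia against 25.0 to 35.6 CPM in normal SMAs, and Atp2a2 at 834 and 765 CPM against 442 to 615 CPM. All 5 cardiac markers were higher in Ischemia than in Normal Drp1 flox/+ mice by fitted fold change, 3 of them with an unadjusted p under 0.05. The part of cardiac tissue in the Ryr2 and Atp2a2 values was not tested beyond these fits.

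**Figure D1:**
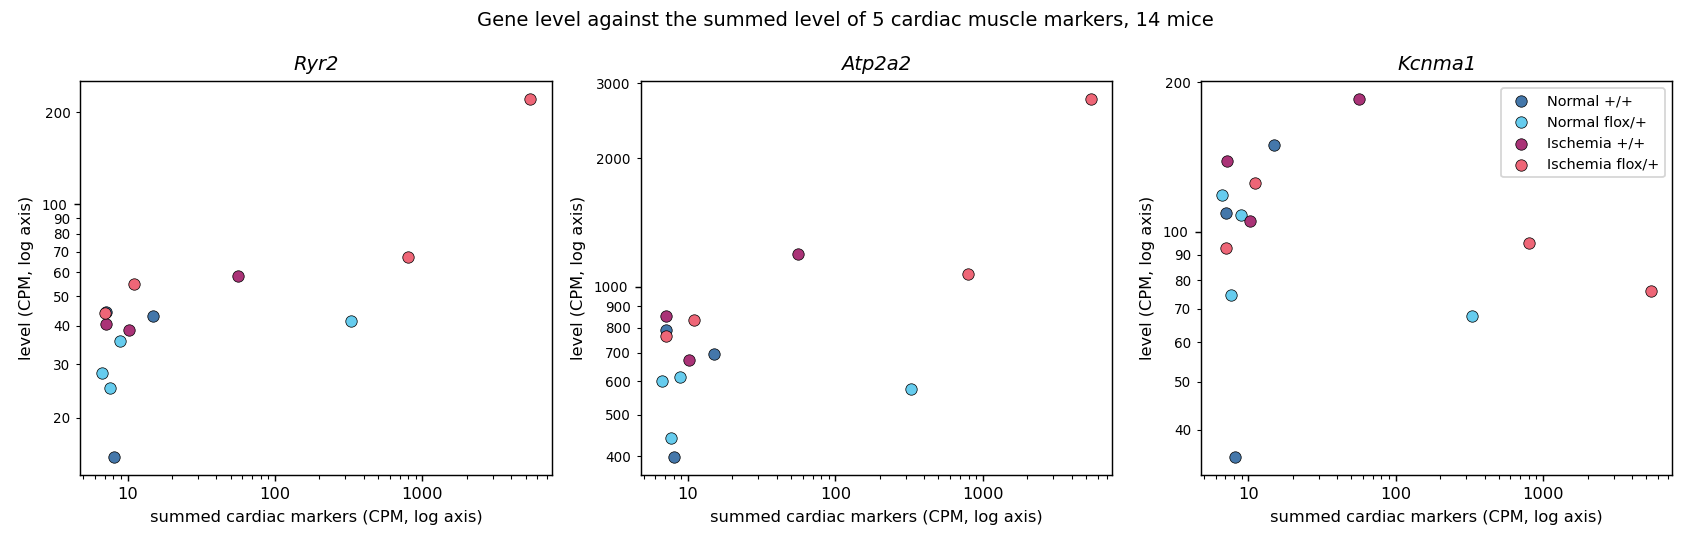
The level of Ryr2, Atp2a2 and Kcnma1 (CPM, log axis) is plotted against the summed CPM of 5 cardiac muscle markers (log axis), with 1 point for each of the 14 mice, coloured by group. The mouse at 5387 CPM of cardiac markers has the highest Ryr2 (221 CPM) and Atp2a2 (2759 CPM), but its Kcnma1 (75.9 CPM) is among the lower values.

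The BK channel subunits were low in the mouse with little smooth muscle RNA. Kcnma1 was at 149, 35.3 and 109 CPM in Normal Drp1 +/+, at 108, 74.7, 119 and 67.8 CPM in Normal Drp1 flox/+, at 185, 105 and 139 CPM in Ischemia Drp1 +/+ and at 125, 93.0, 95.2 and 75.9 CPM in Ischemia Drp1 flox/+. Kcnmb1 was at 223, 69.6 and 267 CPM in Normal Drp1 +/+, at 184, 130.2, 212 and 107 CPM in Normal Drp1 flox/+, at 268, 218 and 308 CPM in Ischemia Drp1 +/+ and at 337, 275, 214 and 206 CPM in Ischemia Drp1 flox/+. For both genes the lowest value was that of Normal Drp1 +/+ replicate 2, and the groups overlapped in all 4 comparisons. The same mouse had the lowest level of 6 of the 10 genes (Cacna1c, Ryr2, Atp2a2, Kcnma1, Kcnmb1 and Abcc9).

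Of the KATP channel subunits, Abcc9 was also lowest in Normal Drp1 +/+ replicate 2, whereas Kcnj8 was not. Kcnj8 was at 29.5, 63.6 and 29.4 CPM in Normal Drp1 +/+, at 34.8, 61.0, 56.9 and 39.1 CPM in Normal Drp1 flox/+, at 47.9, 69.8 and 51.1 CPM in Ischemia Drp1 +/+ and at 67.6, 86.9, 63.2 and 54.7 CPM in Ischemia Drp1 flox/+. Abcc9 was at 353, 199 and 439 CPM in Normal Drp1 +/+, at 241, 349.7, 408 and 238 CPM in Normal Drp1 flox/+, at 476, 342 and 506 CPM in Ischemia Drp1 +/+ and at 402, 301, 363 and 245 CPM in Ischemia Drp1 flox/+. In Normal Drp1 +/+ replicate 2, where Abcc9 was lowest, Kcnj8 was the highest of its group. All groups overlapped for both genes.

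**Figure D2:**
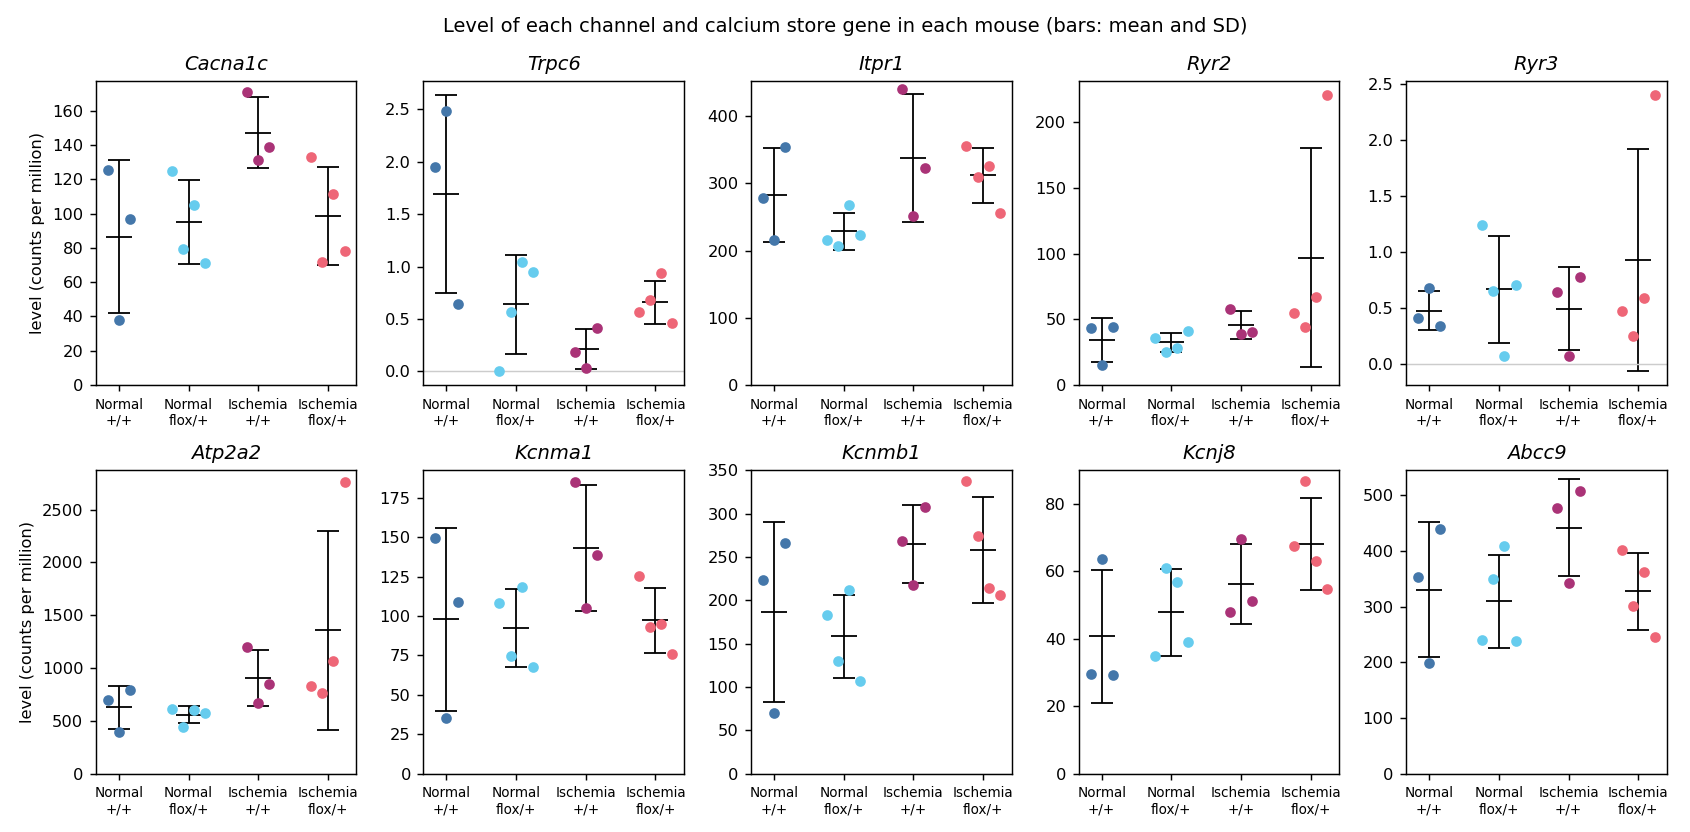
Each panel shows the level of 1 gene (CPM, linear axis) in each mouse (points) of the 4 groups, with the mean and SD as bars. Ryr2, Ryr3 and Atp2a2 each have 1 Ischemia Drp1 flox/+ mouse far above the rest (221, 2.40 and 2759 CPM), and the lowest Cacna1c, Kcnma1 and Kcnmb1 come from 1 Normal Drp1 +/+ mouse.

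The ratio of the BK subunits, a description with no test, spanned a narrower range than either level. Kcnmb1 to Kcnma1 per kilobase was 6.06, 8.00 and 9.89 in Normal Drp1 +/+, 6.86, 7.06, 7.25 and 6.39 in Normal Drp1 flox/+, 5.87, 8.38 and 8.99 in Ischemia Drp1 +/+ and 10.9, 12.0, 9.10 and 11.0 in Ischemia Drp1 flox/+. All 4 Ischemia Drp1 flox/+ mice thus lay above all Normal Drp1 flox/+ and all Ischemia Drp1 +/+ mice, and 1 Normal Drp1 +/+ mouse reached into their range. Replicates 1 and 2, the 2 of them with few cardiac markers, had ratios of 10.9 and 12.0. No share over other gene pairs was computed for this ratio. Of single genes, 11.1% did not overlap between the flox/+ groups and 10.7% between the genotypes in ischemic SMAs. Abcc9 to Kcnj8 was 3.64, 0.952 and 4.55 in Normal Drp1 +/+, 2.10, 1.75, 2.18 and 1.86 in Normal Drp1 flox/+, 3.03, 1.49 and 3.02 in Ischemia Drp1 +/+ and 1.81, 1.05, 1.75 and 1.36 in Ischemia Drp1 flox/+. The groups of this ratio overlapped, and it spread most among the Drp1 +/+ mice. Ryr2 exceeded Ryr3 by 14.6 to 375 times per kilobase, a range that rests on the few Ryr3 reads. Ryr2 per kilobase was 0.0441 to 0.118 times Itpr1 in 12 mice, and higher in Ischemia Drp1 flox/+ replicates 3 and 4, at 0.131 and 0.548 times.

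**Figure D3:**
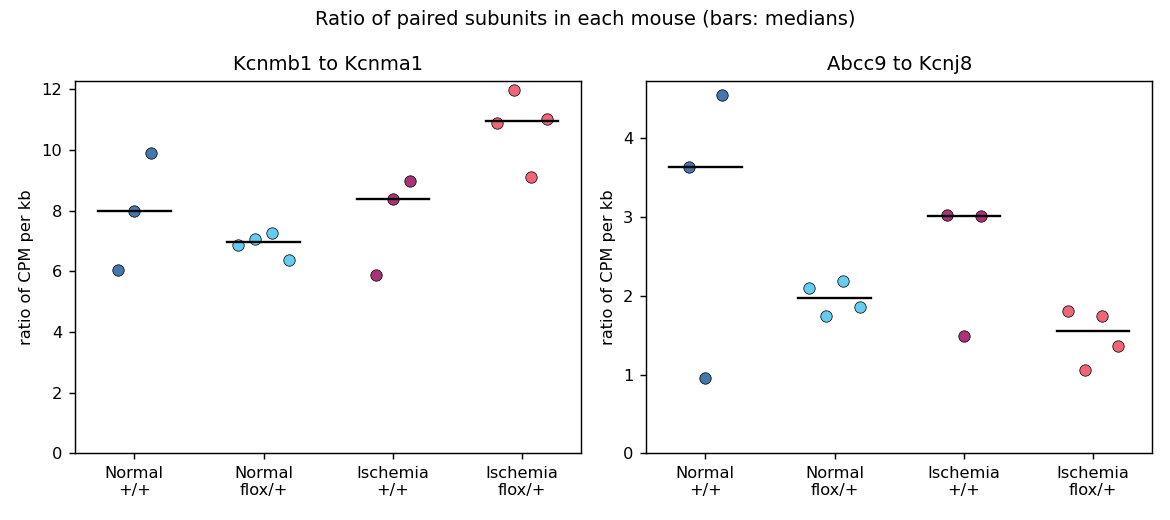
The ratio of CPM per kilobase (linear axis from 0) of Kcnmb1 to Kcnma1 and of Abcc9 to Kcnj8 is shown for each mouse (points) in the 4 groups, with the group median as a bar. The BK ratio is 9.10 to 12.0 in Ischemia Drp1 flox/+ and 6.39 to 7.25 in Normal Drp1 flox/+, and the KATP ratio is most spread in Normal Drp1 +/+ (0.952 to 4.55).

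Between genotypes, no member passed the test. In normal SMAs, 0 of 10 genes were called by edgeR (adjusted p under 0.05 and a fold change over 1.5), beside 0.0% of all genes, and 0 of 10 had an unadjusted p under 0.05, beside 5.25% of all genes. DESeq2 called 0 of 10, beside 0.283% of all genes. The 10 fitted log2 fold changes, flox/+ against +/+, lay between -1.40 (Trpc6) and 0.48 (Ryr3), with standard errors of 0.23 to 1.03 and a median of -0.09, beside -0.02 over all genes. No member had groups without overlap, beside 4.5% of all genes. Without Normal Drp1 +/+ replicate 2 the median was -0.43, and 2 of 10 genes, Kcnj8 (positive) and Kcnmb1 (negative), had an unadjusted p under 0.05, beside 11.4% of all genes, with edgeR's adjusted p of 0.376 and 0.418. In ischemic SMAs, edgeR again called 0 of 10 (0.0% of all genes), 0 of 10 had an unadjusted p under 0.05 (6.48% of all genes), and DESeq2 called 0 of 10 (0.181% of all genes). Changes ran from -0.58 (Cacna1c) to 1.62 (Trpc6), with a median of 0.12 beside -0.03 over all genes. Trpc6 was the 1 gene whose genotypes did not overlap here, beside 10.7% of all genes.

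Within genotypes, ischemic SMAs had higher fitted levels of most members, but none passed edgeR's test. In Drp1 +/+ mice 0 of 10 were called, beside 0.0113% of all genes, and 1 of 10 (Trpc6, lower) had an unadjusted p under 0.05, beside 9.57% of all genes. DESeq2 called 0 of 10, beside 0.633% of all genes. The fitted change was positive for 9 of 10 genes, with a median of 0.44 beside -0.01 over all genes, and 2 genes (Cacna1c, higher, and Trpc6, lower) did not overlap, beside 11.0% of all genes. In Drp1 flox/+ mice edgeR called 0 of 10, beside 0.294% of all genes, and 2 of 10 (Ryr2 and Atp2a2, higher) had an unadjusted p under 0.05, beside 13.2% of all genes. DESeq2 called these 2 genes (adjusted p = 0.0311 for Ryr2 and 0.0303 for Atp2a2), beside 3.46% of all genes. The fitted change was positive for all 10 genes, with a median of 0.46 beside -0.05 over all genes, and the same 2 genes did not overlap, beside 11.1% of all genes. The 2 genotypes have separate control mice, but both share 1 estimate of the spread.

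These medians changed when libraries were scaled to the smooth muscle markers, a scaling that takes the change of the markers off every gene. The 10 markers had a median log2 fold change with ischemia of 0.51 in Drp1 +/+ mice and 0.53 in Drp1 flox/+ mice, and none was called. With the libraries scaled to the markers instead of to all genes, the median of the 10 members was -0.11 in Drp1 +/+ and -0.13 in Drp1 flox/+ mice, and 3 of 10 were positive in each. The same scaling moved the median of all genes to -0.76 and -0.66, so that the members stood 0.65 and 0.53 above it, against 0.45 and 0.51 above it under TMM scaling. Without Normal Drp1 +/+ replicate 2 the median of the members in Drp1 +/+ mice was 0.13.

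The ischemia effects of the genotypes were also compared directly. In edgeR 0 of 10 members were called, beside 0.0% of all genes, 0 of 10 had an unadjusted p under 0.05, beside 4.32% of all genes, and the smallest adjusted p was 0.946. DESeq2 called 0 of 10, beside 0.0735% of all genes. In the test of the 4 groups edgeR called 0 of 10, beside 0.13% of all genes, and 2 of 10 (Ryr2 and Atp2a2) had an unadjusted p under 0.05, beside 12.5% of all genes. DESeq2 called Ryr2 (adjusted p = 0.0421), beside 5.09% of all genes.

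**Figure D4:**
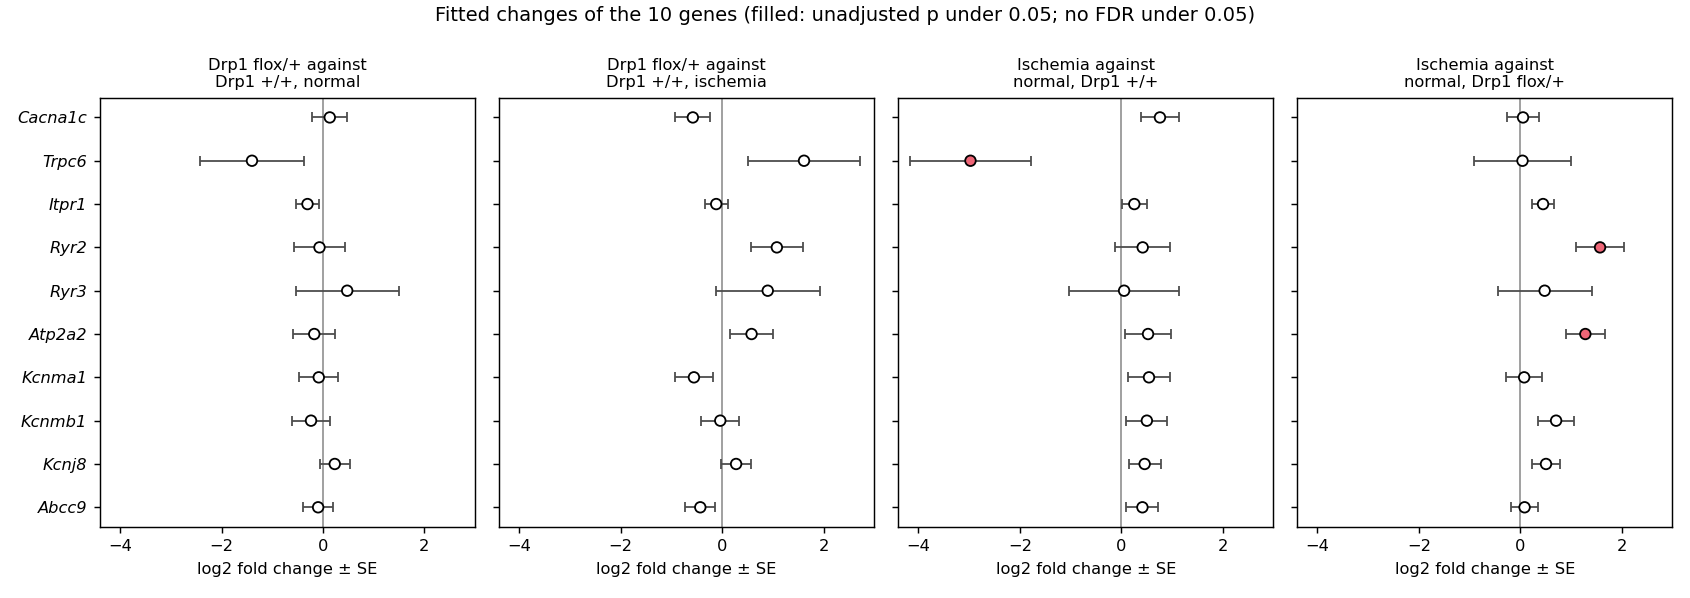
Fitted log2 fold changes of the 10 genes (points, with SE as bars) are shown for the 4 pairwise comparisons, 1 panel each. Filled points have an unadjusted p under 0.05 (Trpc6 at -2.97, Ryr2 at 1.57 and Atp2a2 at 1.28), and no gene has an adjusted p under 0.05 in edgeR.

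The relation of the members to the smooth muscle markers within groups did not pass the adjusted limit for any of the 10. The marker mean, like the scaling to the markers, gives each marker the same weight, Tagln included. Des, another marker, was highest at 361 CPM in Ischemia Drp1 flox/+ replicate 4, the mouse with the most cardiac markers. For each of the 10 genes the deviation of log2 CPM from its group mean was correlated with that of the mean of the 10 markers over 14 mice, which share library, depth and scaling, with two-sided exact permutation p within groups and adjustment over all 17693 genes. Kcnma1 had r = 0.93 (permutation p = 0.00376, adjusted 0.0658) and rho = 0.90 (permutation p = 0.00318, adjusted 0.0588). For Kcnmb1 r was 0.92 (permutation p = 0.00381, adjusted 0.0660) and rho 0.88 (permutation p = 0.00328, adjusted 0.0595). Cacna1c had r = 0.84 (permutation p = 0.00940, adjusted 0.0933) and rho = 0.77 (permutation p = 0.00661, adjusted 0.0769). The share of all genes that passed the limit was 3.41%. Without the 2 mice farthest from the median of the markers (deviations from the group mean), Normal Drp1 +/+ replicates 2 and 3, r was 0.87 for Kcnma1, 0.81 for Kcnmb1 and 0.71 for Cacna1c, and over the 13 mice of lane 8 it was 0.94, 0.90 and 0.84. The other sequencing lane held only 1 library.

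Kcnj8 went the other way, with r = -0.72 (permutation p = 0.0535, adjusted 0.221) and rho = -0.66 (permutation p = 0.0619, adjusted 0.239), and r was -0.47 without the 2 farthest mice and -0.93 in the 10 mice with at most 15.0 CPM of cardiac markers. Its KATP partner Abcc9 had r = 0.63 (permutation p = 0.105, adjusted 0.316) and rho = 0.56 (permutation p = 0.0978, adjusted 0.303), with r = 0.30 without the farthest mice and 0.65 in those 10. Itpr1 had r = 0.70 (permutation p = 0.0330, adjusted 0.172) and rho = 0.70 (permutation p = 0.0236, adjusted 0.141), or 0.54 without them. For Ryr2 and Atp2a2 r was 0.47 and 0.47 (permutation p = 0.145 and 0.0620, adjusted 0.373 and 0.239) and rho 0.49 and 0.56 (permutation p = 0.150 and 0.0489, adjusted 0.377 and 0.212), with 0.16 and 0.28 without the farthest mice. In the 10 mice with few cardiac markers r was 0.96 for Ryr2 and 0.98 for Atp2a2. Those 10 mice were picked after seeing the data and include both of the farthest mice. No p was computed for them. Trpc6 and Ryr3, the genes with few reads, had r = -0.36 and 0.01 (permutation p = 0.266 and 0.980, adjusted 0.516 and 0.992) and rho = -0.31 and -0.04 (permutation p = 0.324 and 0.904, adjusted 0.565 and 0.960).

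**Figure D5:**
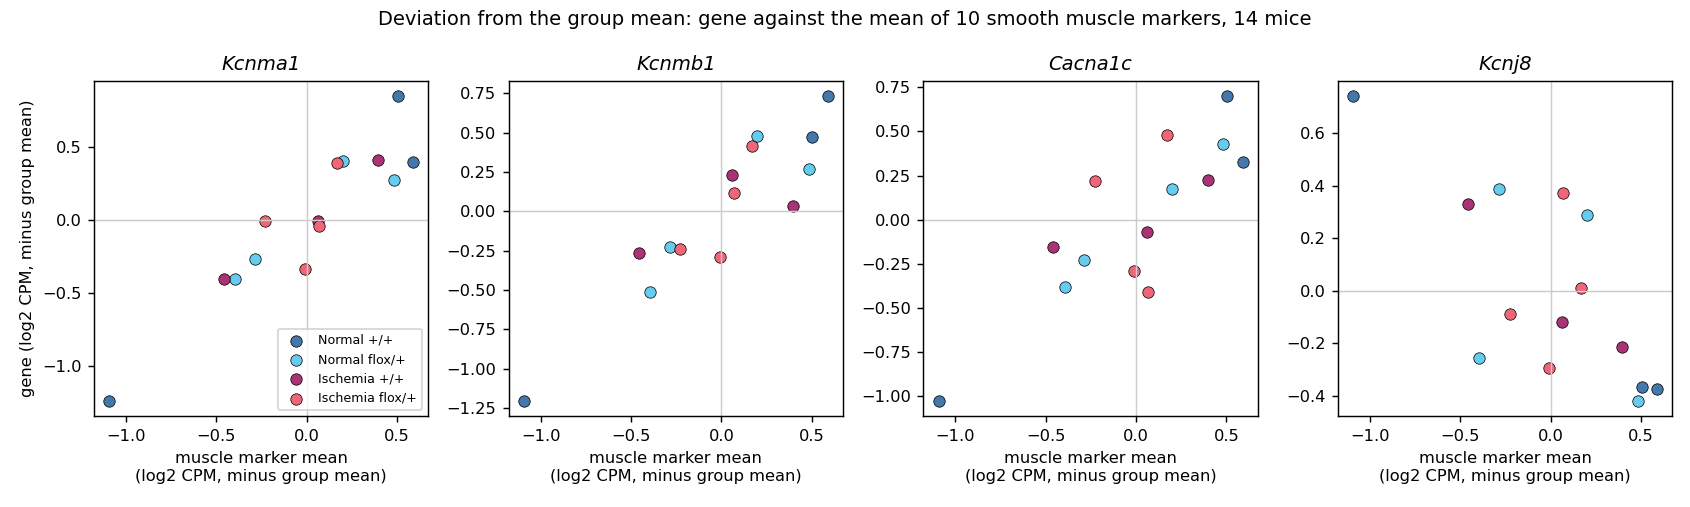
The deviation of log2 CPM from the group mean is plotted for Kcnma1, Kcnmb1, Cacna1c and Kcnj8 against that of the mean of 10 smooth muscle markers, with 1 point per mouse, coloured by group. Normal Drp1 +/+ replicate 2 lies at -1.09 in the markers, at the lower left for the first 3 genes and at the upper left for Kcnj8.

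Pairs of members were compared in the same way, 5 in all. Kcnma1 and Kcnmb1 had r = 0.92 (permutation p = 0.00424, adjusted over the 5 pairs 0.00707) and rho = 0.86 (permutation p = 0.00198, adjusted 0.00330), and r was 0.86 without the 2 mice farthest from the median of the second gene and 0.94 in lane 8. Kcnma1 and Cacna1c had r = 0.94 (permutation p = 0.000772, adjusted 0.00193) and rho = 0.84 (permutation p = 0.00125, adjusted 0.00313), or 0.84 without the 2 farthest mice. Among 17692 other genes, Kcnma1 was the gene number 44 in likeness to Cacna1c and number 207 in likeness to Kcnmb1. Ryr2 and Atp2a2 had r = 0.95 (permutation p = 0.000627, adjusted 0.00193) and rho = 0.93 (permutation p = 0.000675, adjusted 0.00313), and Ryr2 was the gene most like Atp2a2 of all. This r was 0.90 without the 2 farthest mice and 0.92 in the 10 mice with few cardiac markers. For Kcnj8 and Abcc9 r was -0.24 (permutation p = 0.603, adjusted 0.603) and rho -0.11 (permutation p = 0.787, adjusted 0.787), with r = 0.01 without the 2 farthest mice and -0.47 in the 10 mice with few cardiac markers. Ryr2 and Ryr3 had r = 0.46 (permutation p = 0.0994, adjusted 0.124) and rho = 0.41 (permutation p = 0.144, adjusted 0.180), with r = 0.54 without the 2 farthest mice and -0.04 in those 10 mice. The pairs were chosen with earlier results of these data known.

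Over all 14 mice, group differences included, the genes most like each member were named as a description. Cacna1c was most like Ttc3 (r = 0.97) and Ube2o (0.96), and Kcnma1 most like Ppp1r12a (0.99), the targeting subunit of myosin phosphatase, and Ttc3 (0.98). Kcnmb1 was most like Ltbp1 (0.99), which binds latent TGF-beta in the matrix, and Itga8 (0.98), an integrin subunit. Itpr1 was most like Pafah1b1 (0.95) and Hp1bp3 (0.93), and Abcc9 most like Golim4 (0.98) and Dsel (0.96). Ryr2 was most like Atp2a2 (0.96) and Myoz2 (0.94), a protein of the sarcomere of heart and slow muscle, and Atp2a2 most like Ryr2 and the pseudogene Got2-ps1 (0.95), whose counts may share reads with its parent gene. Kcnj8 was most like Gm19144 (0.88) and 4931440P22Rik (0.86). Trpc6 was most like P2rx3 (0.92) and Jkamp (0.88) and Ryr3 most like Gm9895 (0.83) and Tmcc2 (0.82), both on few reads.

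Other genes of the same pathways were read from 4 lists, and edgeR called none of them in either direction, in any of the 4 pairwise comparisons, the difference of the ischemia effects or the test of the 4 groups. Of all genes it called 0.0% to 0.294%, depending on the comparison, so the lack of calls does not set these lists apart. Of 16 further voltage-gated calcium channel subunits 13 were tested, and at most 1 had an unadjusted p under 0.05 in any comparison. The share of all genes was 4.32% to 13.2%, depending on the comparison. Cacnb2, a beta subunit that brings L-type channels to the membrane, was at 25.1 ± 15.0 CPM in Normal Drp1 +/+, 20.5 ± 6.61 in Normal Drp1 flox/+, 41.5 ± 5.75 in Ischemia Drp1 +/+ and 36.3 ± 9.81 in Ischemia Drp1 flox/+ (mean ± SD; unadjusted p over the 4 groups 0.0905, adjusted 0.463, edgeR). Cacna2d2, an alpha2delta subunit, reached 4.86 CPM at most.

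All 24 genes of store release, refilling and extrusion were tested. For ischemia in Drp1 flox/+ mice 5 had an unadjusted p under 0.05 and a positive change and 1 a negative change, beside 13.2% of all genes, and in Drp1 +/+ mice 0 had one, beside 9.57%. For genotype the numbers were 1 positive in normal SMAs, beside 5.25% of all genes, and 3 positive and 1 negative in ischemic SMAs, beside 6.48%. For the difference of the ischemia effects 2 were negative, beside 4.32% of all genes. Those with the smallest p over the 4 groups were Sln (sarcolipin, a small inhibitor of SERCA; adjusted p = 0.207, edgeR) and Casq2 (calsequestrin of heart, which binds calcium in the store; adjusted p = 0.228, edgeR). Sln was at 185 CPM in Ischemia Drp1 flox/+ replicate 4, 22.3 CPM in replicate 3 and 8.28 CPM in Normal Drp1 flox/+ replicate 4, the mice with the highest cardiac markers, and at 0.238 CPM or less in the others. Casq2 was at 169, 24.9 and 10.2 CPM in these 3 mice and at 2.70 CPM or less in the others.

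Of 26 further potassium channel subunits 21 were tested. For ischemia in Drp1 flox/+ mice 1 had an unadjusted p under 0.05 and a positive change and 2 a negative change, beside 13.2% of all genes. In Drp1 +/+ mice 1 was positive, beside 9.57%. For genotype 1 was positive in normal SMAs, beside 5.25%, and 1 positive and 1 negative in ischemic SMAs, beside 6.48%. For the difference of the ischemia effects 1 was negative, beside 4.32%. Kcnab2, a beta subunit of voltage-gated channels, and Kcnn4, an intermediate-conductance channel of endothelium and blood cells, had the smallest p over the 4 groups. Kcnab2 was at 2.97 ± 2.70, 6.35 ± 3.93, 1.33 ± 0.459 and 2.35 ± 1.27 CPM and Kcnn4 at 2.22 ± 1.04, 5.48 ± 1.88, 2.77 ± 0.868 and 2.52 ± 0.994 CPM in Normal Drp1 +/+, Normal Drp1 flox/+, Ischemia Drp1 +/+ and Ischemia Drp1 flox/+ (mean ± SD; adjusted p = 0.316 and 0.351, edgeR). Of 16 other cation and chloride channels 14 were tested, and at most 1 had an unadjusted p under 0.05 in any comparison, beside 4.32% to 13.2% of all genes. Trpv4, a calcium-permeable channel, was at 6.11 to 23.2 CPM in Normal Drp1 +/+, 11.3 to 15.4 in Normal Drp1 flox/+, 12.6 to 76.9 in Ischemia Drp1 +/+ and 29.2 to 40.4 in Ischemia Drp1 flox/+ (adjusted p over the 4 groups 0.284, edgeR). Its flox/+ groups did not overlap, beside 11.1% of all genes, and its +/+ groups overlapped. Clcn3, a chloride transporter, was at 25.8 ± 10.7, 30.3 ± 3.57, 18.5 ± 2.69 and 21.8 ± 3.95 CPM in the same order of groups (adjusted p = 0.441, edgeR).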

How the data were processed

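RNA was sequenced from the superior mesenteric artery of 14 mice in 4 groups, taken from the labels. The table deposited by the authors holds raw read counts per gene symbol, 1 column per mouse. HISAT2 2.0.4 and the mouse build mm10 are named in the submitters' processing notes, and the counting program, annotation and strand setting are not given in the sources used here, so overlapping and antisense genes cannot be separated.

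Of 46095 symbols, 27727 had a count and 17693 passed edgeR's filter on low counts. edgeR 4.0.16 (R 4.3.3) was used with TMM scaling and its quasi-likelihood test with Benjamini-Hochberg adjustment over all tested genes, in 1 model of the 4 groups. A gene was called at an adjusted p under 0.05 and a fold change over 1.5. The biological coefficient of variation was 0.522. Fold changes carry standard errors, which for edgeR were derived from the fold change and the F statistic of its test. They are thus not separate evidence from the unadjusted p. For log2 CPM a prior count of 2 was used. The alternatives were DESeq2 1.42.0, other scalings, other filters, a replicate block and single mice left out. The fit was also run on simulated counts with a smaller spread than these libraries have and no outlying library. That run does not show how the fit behaves at the spread seen here. Within-group correlations used 20736 permutations, those that keep mice in their group. Replicates are separate mice per the labels, and the lowest chi-square per degree of freedom between 2 libraries of 1 group was 59.1. Same-numbered mice of different groups are not said to share a litter or day, so the main model has no block. Their deviations correlated between -0.15 and 0.32, with a median r of 0.12, against -0.04 for other-numbered pairs. Normal Drp1 +/+ replicate 3 was the only library of its sequencing lane.

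Lengths and positions come from GENCODE (GRCm38) and promoters from RefSeq (GRCm38.p6). The members and lists were chosen with earlier results of these data known. Fold changes with tests are given for members with an unadjusted p under 0.05. For each pathway list, the 2 genes with the smallest p over the 4 groups are named, and for each member the 2 genes with the highest correlation over 14 mice.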

Additional observations from a re-analysis of the deposited data

Results flagged for a closer look

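Of 20 sets of 4 mice examined (the 10 genes in both flox/+ groups), 3 held a mouse far from the other mice. The sets share libraries, so they are not independent, and the number was not compared with chance. All 3 were the same mouse, Ischemia Drp1 flox/+ replicate 4. Ryr2 was at 221 CPM there, and the next mouse of the group was at 67.1 CPM, a gap of 0.870 of the whole range of the group. Ryr3 was at 2.40 CPM, with the next mouse at 0.585 CPM and a gap of 0.843 of the range. Atp2a2 was at 2759 CPM, with the next mouse at 1068 CPM and a gap of 0.848 of the range. This mouse also had the highest sum of cardiac markers, 5387 CPM, and the part of cardiac tissue in these levels was not tested.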

How the results depend on the processing

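In edgeR no alternative called any of the 10 genes. DESeq2 called 2 in the comparison of ischemic with normal Drp1 flox/+ mice and 1 in the test of the 4 groups, and over all genes it called 613 against 52 and 900 against 23 in edgeR. Scaled to the smooth muscle markers, the median change with ischemia was -0.11 in Drp1 +/+ and -0.13 in Drp1 flox/+ mice. With upper-quartile scaling 2 of the 10 genes correlated with the smooth muscle markers past the adjusted limit. With single mice left out the number was 0 to 1, and it was 1 without Ischemia Drp1 flox/+ replicate 3. The cause of these shifts was not tested.

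With single mice left out, 0 to 0 genes were called in each comparison. The median fold change was then -0.43 to 0.08 for genotype in normal SMAs, -0.03 to 0.18 for genotype in ischemic SMAs, 0.13 to 0.65 for ischemia in Drp1 +/+ mice, 0.37 to 0.49 for ischemia in Drp1 flox/+ mice and 0.08 to 0.32 for the difference of the ischemia effects. The lowest value for ischemia in Drp1 +/+ mice came without Normal Drp1 +/+ replicate 2. Without that mouse 5 of 10 genes had an unadjusted p under 0.05 for ischemia in Drp1 flox/+ mice, beside 16.1% of all genes, with a smallest adjusted p of 0.0973 (edgeR). Over all genes edgeR then called 174 for this comparison, 208 in the test of the 4 groups and 29 for genotype in normal SMAs. Over the alternatives within edgeR these counts ran from 0 to 267 (only the groups compared), 0 to 208 and 0 to 29. For Ryr2 the change was 0.77 to 1.84, for Atp2a2 0.67 to 1.504 and for Trpc6 -3.90 to -2.51.

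With the replicate block edgeR called 0 of the 10 genes, and the medians were -0.02, 0.14, 0.52, 0.36 and 0.16 in the same order. Members with an unadjusted p under 0.05 then numbered 4 for ischemia in Drp1 +/+ mice, beside 11.9% of all genes, and 5 in Drp1 flox/+ mice, beside 14.7%. Of the 14 mice, 8 correlated best with a mouse of their own number, a count from the data and not from the design. The number by chance was not computed and the matches are not independent, so a pairing of the mice was not tested. Genes with few reads, Trpc6 and Ryr3, had standard errors of up to 1.51, so only large changes could have been detected.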
